A study of Homo sapiens with 30 samples.

Results

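HCT116 is an established human colon carcinoma line. The RNA sequencing libraries described here are those of HCT116 cells kept in medium at pH 6.5, set against HCT116 cells in medium at pH 7.4. The series holds 30 libraries of 3 cancer lines, FaDu, HCT116 and SiHa, at these pH values. Of these, 7 libraries entered the comparison: replicates 1 and 3 at pH 6.5, and replicates 1, 3, 5, 6 and 7 at pH 7.4. Of the 38122 genes in the table, 18885 had a mean of at least 10 normalised counts in the higher group and were tested. Cells at pH 6.5 had been held there for at least 1 month. Both groups grew at 37 °C and 5% CO2 in medium with 10 mM glucose, 2 mM glutamine, 10% serum, 25 mM HEPES and 25 mM PIPES. The series concerns tumour acidosis and the loss of fat tissue. Whether replicates are separate cultures, or separately adapted populations at pH 6.5, is not in the labels, and the p-values therefore describe only the spread between these libraries.

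As background, the core of a tumour is often acid, because cells export the protons and lactate of glycolysis faster than blood carries them away, and cells that survive there for weeks have changed their metabolism. Interferons are secreted signals of viral defence. Type I and type III interferons bind different receptors, but both act through a complex that holds STAT2 and IRF9 and binds a short DNA motif, the interferon-stimulated response element, before many antiviral genes. HNF4A is a transcription factor of gut and liver epithelium, and the large family of zinc finger genes named ZNF, many of them in clusters on chromosome 19, encodes DNA-binding proteins of which many are repressors.

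The 7 libraries held 30.5 to 44.0 M reads. Replicates 5, 6 and 7 labelled pH 6.5 were kept out because they carried 27 genes restricted to SiHa, a cervical carcinoma line, at a median of 35.8%, 103% and 100% of their SiHa level. In replicates 1 and 3 the same median was 0.06% and 0%, and the 31 genes restricted to HCT116 stood at 100% and 88.4% of their HCT116 level at pH 7.4. The 24 genes restricted to FaDu, a squamous line of the hypopharynx, stood at a median of 0% in both. Of 14 colon epithelium markers, CDX1 was listed at 0 in every library and GPA33 and CEACAM5 were under 10, so the colon label rests on the others, such as CDX2. Of 10 fibroblast markers 8 were under 10, among them DCN, which was listed at 0. Of the 9 immune markers measured PTPRC, CD3E, MS4A1 and CD68 were under 10, and 5 averaged 10 or more in at least 1 group. The immune list summed to 58.2 to 65.2 at pH 6.5 and 83.6 to 217 at pH 7.4. Of 7 endothelial markers measured, CDH5, KDR and ERG were under 10 and 4 were not. The endothelial list summed to 237 to 287 at pH 6.5 and 191 to 357 at pH 7.4. Mitochondrially encoded genes took 9.0% and 9.11% of reads at pH 6.5 and 6.74% to 7.98% at pH 7.4, and the part of this difference in the results was not tested. In bulk libraries, a gene used by fewer cells and a gene used less in each cell cannot be told apart.

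At pH 6.5, 1721 genes were higher, 9.11% of those tested, and 2098 were lower, 11.1%, by limma with an intensity trend on log2 of the normalised count plus 1 at a Benjamini-Hochberg adjusted p under 0.05. At least 2-fold, 954 were higher (5.05%) and 1054 were lower (5.58%). The median log2 change over all genes was -0.01. Both pH 6.5 libraries lay above every pH 7.4 library in 3291 genes (17.4%) and below every one in 3539 (18.7%). The counts rested on both pH 6.5 libraries: without replicate 1 there were 850 higher and 1348 lower, and 628 were at least 2-fold higher. Values below are normalised counts, given for pH 6.5 replicates 1 and 3 and then for pH 7.4 replicates 1, 3, 5, 6 and 7, and changes are log2 differences of pH 6.5 over pH 7.4 ± SE from this model. They are on the scale of log2 of the value plus 1, which understates the change of low genes. For the gene lists, the range of a count over the 7 fits that each left out 1 library is given where a count over 5 moved by more than 1.5 times. Counts of 5 or fewer often moved by as much, with any of several libraries left out.

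**Figure D1:**
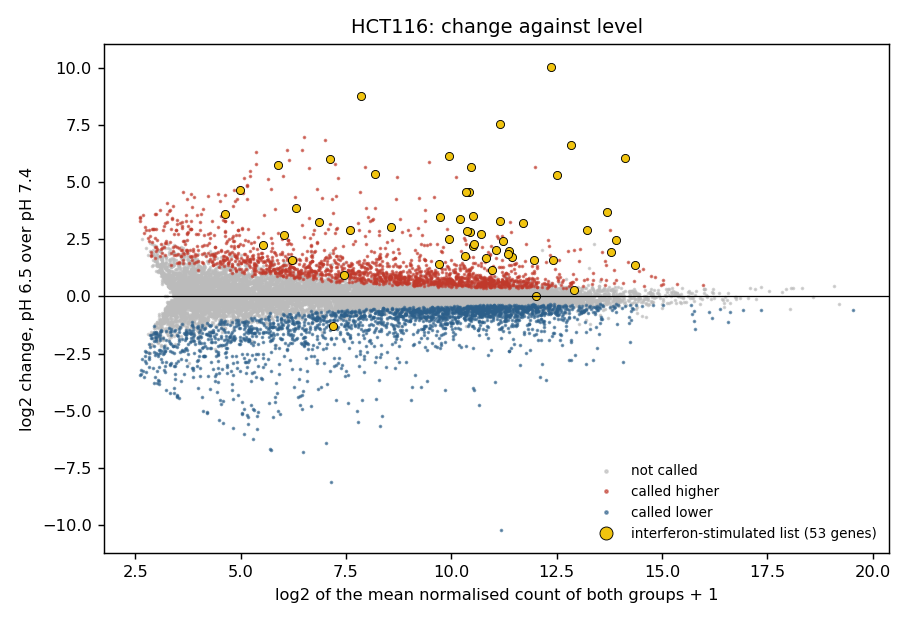
Log2 change at pH 6.5 over pH 7.4 (vertical axis) against log2 of the mean normalised count of both groups plus 1 (horizontal axis) for each tested gene, without Y-chromosome and X-inactivation genes. Red and blue mark genes called higher and lower, and yellow circles mark the 53 interferon-stimulated genes, of which 49 lie among the genes called higher, up to BST2 at 10.04.

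Of the 48 gene lists, the interferon-stimulated genes had the largest share of risen members. Of its 53 genes, 49 rose, each by at least 2-fold, 1 fell and 3 were not called, with a median change of 2.87, while 5.05% of all genes were at least 2-fold higher. Promoter letters were not used in compiling the list, but the interferon-stimulated response element lies before many antiviral genes whatever these libraries show. The share of members with the motif therefore describes the list and does not test the rise. The motif searched was GAAANNGAAA, or TTTCNNTTTC on the other strand, matches being allowed to overlap, in the 250 bases before the gene start in RefSeq (GRCh38.p14). It was present in 22 of the 38 risen list members with a promoter in the table (57.9%), in 285 of 12027 promoters of tested genes (2.37%) and in 839 of all 27305 promoters (3.07%). It was present in 16 of 152 genes (10.5%) that rose at least 4-fold and are not on the list, and in 7 of 236 genes (2.97%) that fell at least 4-fold. The stretches below hold the matches, in capitals, of genes whose values follow, so that the repeated element can be seen. A match is a description of the letters and not a measured binding site.
BST2, chr19:17405705-17405800, reverse strand: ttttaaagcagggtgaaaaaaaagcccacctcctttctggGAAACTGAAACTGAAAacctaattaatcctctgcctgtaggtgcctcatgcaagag
IFI44L, chr1:78620244-78620393, forward strand: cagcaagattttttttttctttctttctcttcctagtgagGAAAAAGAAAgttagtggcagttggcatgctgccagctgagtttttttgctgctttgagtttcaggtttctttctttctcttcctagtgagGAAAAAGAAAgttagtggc
IFI27, chr14:94110588-94110690, forward strand: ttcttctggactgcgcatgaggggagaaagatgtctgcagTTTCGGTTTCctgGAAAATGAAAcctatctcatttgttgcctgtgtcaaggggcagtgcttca
IFI6, chr1:27672239-27672388, reverse strand: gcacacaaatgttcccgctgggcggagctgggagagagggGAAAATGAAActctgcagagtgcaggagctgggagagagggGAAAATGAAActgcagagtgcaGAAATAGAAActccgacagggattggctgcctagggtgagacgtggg
IFI44, chr1:78649731-78649788, forward strand: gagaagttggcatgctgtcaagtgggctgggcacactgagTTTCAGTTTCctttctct
IFIT1, chr10:89392467-89392569, forward strand: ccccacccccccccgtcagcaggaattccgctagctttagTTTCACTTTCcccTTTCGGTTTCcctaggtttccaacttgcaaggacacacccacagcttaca
ISG15, chr1:1013344-1013439, forward strand: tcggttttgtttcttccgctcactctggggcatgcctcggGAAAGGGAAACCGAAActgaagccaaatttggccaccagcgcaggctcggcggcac
IFNL1, chr19:39296157-39296248, forward strand: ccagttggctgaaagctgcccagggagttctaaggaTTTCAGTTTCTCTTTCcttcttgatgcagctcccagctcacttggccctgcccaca

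BST2 encodes tetherin, which holds budding viruses at the cell surface. It stood at 10629 and 10312 at pH 6.5 and at 8.47, 15.7, 8.05, 4.91 and 10.3 at pH 7.4, a change of 10.04 ± 0.34 (limma adjusted p = 6.84e-09). The gene was thus near its detection limit in all 5 pH 7.4 libraries and abundant in both at pH 6.5. IFI44L, an interferon-induced gene of the same family as IFI44, stood at 609 and 307 and had no read in any pH 7.4 library, so it was at least 144-fold higher. IFITM1, a membrane protein that limits viral entry, stood at 5324 and 3806 against 35.0, 40.1, 9.06, 20.9 and 21.8 (7.57 ± 0.44). IFI27 stood at 16551 and 12513 against 140, 191, 111, 113 and 196 (6.62 ± 0.24, adjusted p = 1.30e-08). IFI6, a mitochondrial protein, stood at 45487 and 24462 against 527, 706, 397, 442 and 475 (6.06 ± 0.25). Replicate 1 was the higher of the pH 6.5 libraries for these genes, and the groups did not overlap.

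The antiviral effectors moved in the same direction. IFIT1, which binds RNA that lacks the host cap, stood at 14655 and 8019 against 144 to 464 (5.31 ± 0.37), and OAS1, which makes the activator of RNase L, at 3424 and 1865 against 83.5 to 163 (4.55 ± 0.28). ISG15, a ubiquitin-like modifier, stood at 33286 and 16410 against 1488 to 2491 (3.69 ± 0.25). MX1 stood at 262 and 159 against 14.7 to 29.7 (3.25 ± 0.34). PARP10, an ADP-ribosyltransferase, stood at 3046 and 2489 against 34.2 to 75.2 (5.68 ± 0.28). IFI44 (6.14 ± 0.41), XAF1 (6.01 ± 0.70), a proapoptotic factor, and SAMD9L (5.77 ± 0.82) were also among the 15 genes with the largest increase. XAF1 rose by 5.35 without pH 6.5 replicate 1 and by 6.68 without replicate 3. Of the 49 risen members, 47 were higher in pH 6.5 replicate 1 than in replicate 3, with a median log2 difference of 0.68 against 0.08 over the 13025 tested genes with a mean of at least 100. The count of risen members was 47 to 50 over all alternatives that kept the 3 libraries with SiHa genes out.

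**Figure D2:**
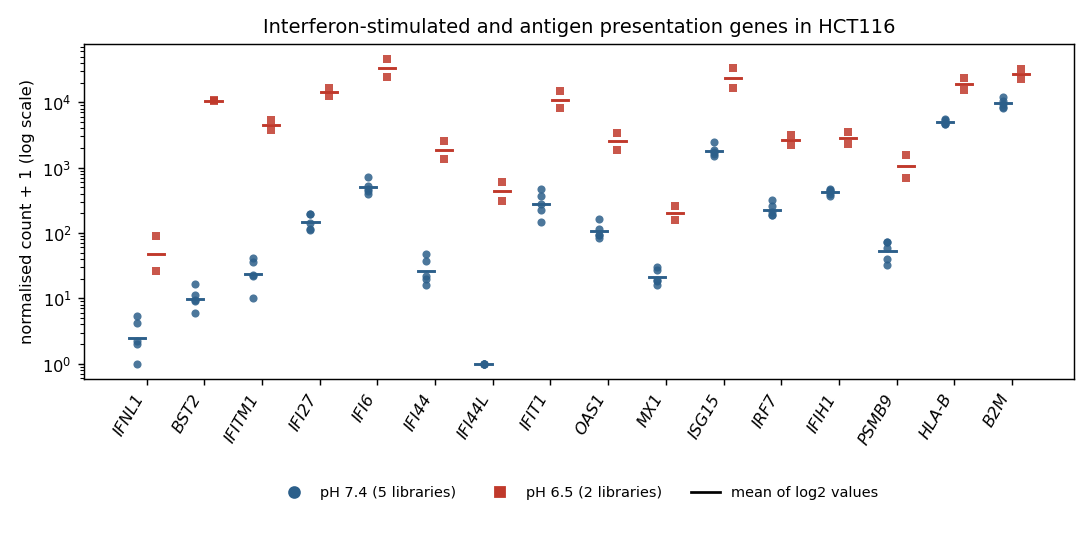
Normalised counts plus 1 on a log axis for 16 interferon and antigen presentation genes, each point 1 library (5 at pH 7.4, 2 at pH 6.5) and each bar the mean of the log2 values. For every gene shown both pH 6.5 points lie above all pH 7.4 points, with the widest gap for BST2 (10629 and 10312 against at most 15.7).

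The parts of the signalling chain moved unequally. Of the factors that carry the signal, IRF9 stood at 59.5 and 90.1 against 9.17 to 19.7 (2.24 ± 0.37) and IRF7 at 3166 and 2189 against 184 to 315 (3.54 ± 0.23). The RNA sensors RIGI, at 4475 and 4020 against 1190 to 1354 (1.72 ± 0.12), and IFIH1, at 3511 and 2331 against 372 to 477 (2.76 ± 0.18), rose. The following genes were chosen after their values were seen. STING1, the adaptor of the DNA sensor cGAS, fell, at 378 and 366 against 640 to 1297 (-1.28 ± 0.24, adjusted p = 0.00307). IFNAR1, a chain of the type I interferon receptor, stood at 1566 and 1970 against 1901 to 2006 and was not called (-0.14 ± 0.13, adjusted p = 0.458). Among interferon genes, IFNL1, of type III, stood at 88.1 and 25.1 against 3.18, 4.36, 1.01, 1.23 and 0 (4.26 ± 0.72, adjusted p = 0.0016), with 3.38 without pH 6.5 replicate 1 and 5.15 without replicate 3. IFNL2 and IFNL3 were also called higher (4.54 and 4.27), but they are near-identical copies and reads may have been split between them. GBP2, a guanylate-binding protein, was the 1 list member that fell, at 81.3 and 84.4 against 159 to 258 (-1.29 ± 0.24).

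Genes of antigen presentation by MHC class I rose with them. Of 32 members tested, 18 rose (56.25% beside 9.11% of all genes) and none fell. The median change was 1.11, and 14 did not pass the test. PSMB9, a catalytic subunit of the immunoproteasome, stood at 1581 and 697 against 72.0, 57.5, 31.2, 39.3 and 72.2 (4.32 ± 0.38, limma adjusted p = 1.10e-05). Its change was 3.73 without pH 6.5 replicate 1 and 4.91 without replicate 3. The presenting chain HLA-B stood at 23359 and 15299 against 4632 to 5488 (1.92 ± 0.16) and its partner B2M at 32776 and 22375 against 8269 to 12155 (1.49 ± 0.18). TAP1, which carries peptides into the endoplasmic reticulum, rose by 1.48 ± 0.18. The HLA genes are polymorphic and alike, so reads could be split or lost between them.

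Some genes went from a steady level to no reads or nearly none. In 24 genes there were at most 3 reads in each pH 6.5 library while the mean at pH 7.4 was at least 50, and in 8 genes the reverse held. The limit of 3 reads had to hold in 2 libraries for the 24 and in 5 for the 8, so the counts cannot be set against each other. TM4SF18, a tetraspanin-like membrane protein, had no read in either pH 6.5 library and stood at 352, 276, 271, 286 and 212 at pH 7.4, at least 81.5-fold lower. FLRT3, an adhesion and guidance receptor, stood at 1.15 and 0 against 163, 305, 114, 154 and 139, a ratio of counts of 317 (95% counting interval 56.7 to 12518). ZFP42, which encodes the pluripotency marker REX1, stood at 1.15 and 2.28 against 110, 125, 301, 292 and 450, a ratio of 144 (49.2 to 699.5). None of these genes overlapped between the groups.

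Other genes among the 15 largest decreases ended near 0 as well. DPEP1, a membrane dipeptidase, stood at 16 and 14.8 against 472 to 774 (-5.25 ± 0.22), and GNA15, a G protein alpha subunit, at 2.29 and 2.28 against 79.3 to 158 (-5.13 ± 0.31). ZC4H2, a zinc finger gene on the X chromosome, stood at 12.6 and 11.4 against 371 to 498 (-5.02 ± 0.20). SPATA18, a p53 target in mitochondrial quality control, stood at 2.29 and 1.14 against 71.0 to 140, a ratio of counts of 62.6 (21.3 to 304.6). SUSD4 stood at 1.15 and 4.56 against 94.1 to 132, NWD1 at 8.01 and 2.28 against 96.2 to 213, and SUN3 at 12.6 and 2.28 against 118 to 266. Leaving out 1 pH 6.5 library moved the unlogged fold of these 3 genes by more than 1.5 times. Their log2 changes became -4.34 or -5.72 for SUSD4, -4.19 or -5.65 for NWD1, and -3.78 or -5.83 for SUN3. Of genes chosen after their values were seen, MACROD2, an ADP-ribose hydrolase, PLA2R1, a phospholipase receptor, and VGLL3, a transcription cofactor, had no read at pH 6.5 and were at least 22.2-fold, 19.1-fold and 15.8-fold lower. SLC40A1, the iron exporter ferroportin, stood at 3.43 and 0 against 55.3 to 118. In the other direction, CLEC2B, a ligand of a natural killer cell receptor, stood at 90.4 and 70.7 with no read in any pH 7.4 library, at least 25.3-fold higher, and SLC30A10, a manganese exporter, at 66.4 and 77.6 against 0 to 2.12.

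**Figure D3:**
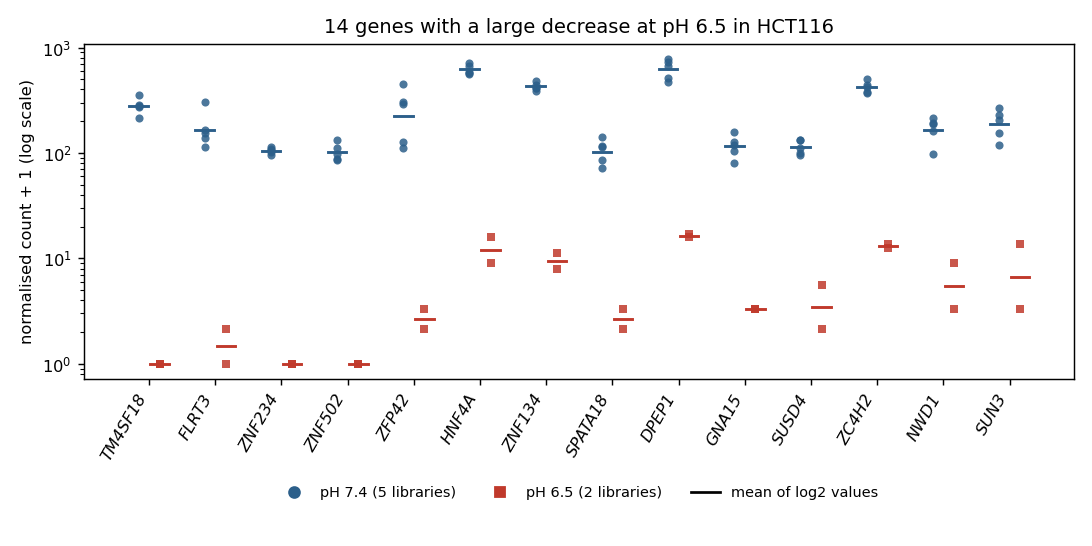
Normalised counts plus 1 on a log axis for 14 of the 15 genes with the largest decrease at pH 6.5, each point 1 library and each bar the mean of the log2 values. All pH 7.4 points lie at 71.0 or higher and all pH 6.5 points at 16 or lower.

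Several zinc finger genes were among those that ended near 0, although most of the ZNF family was not called. Of 375 ZNF genes tested, 313 were not called, and the median change was -0.06. There were 50 that fell (13.3% beside 11.1% of all genes) and 12 that rose (3.2% beside 9.11%). At least 2-fold, 34 of the 375 fell, where 5.58% of all genes did. Without pH 6.5 replicate 1, 26 fell, and without pH 7.4 replicate 1, 21 rose. Of the 162 on chromosome 19, 33 fell and 3 rose, beside 120 and 121 of all 1207 genes tested on that chromosome. ZNF234 and ZNF502 had no read in either pH 6.5 library. ZNF234 stood at 94.3, 100, 107, 112 and 108 at pH 7.4 and was at least 30.4-fold lower, and ZNF502 stood at 111, 86.3, 84.6, 133 and 96.2 and was at least 29.8-fold lower. ZNF134 stood at 10.3 and 6.84 against 388, 481, 416, 443 and 409 (-5.50 ± 0.21, limma adjusted p = 1.55e-08). ZNF350, a partner of BRCA1, stood at 9.16 and 2.28 against 90.6 to 129 (-4.25 ± 0.38), with -5.06 without pH 6.5 replicate 1 and -3.43 without replicate 3. ZNF222, at 1.15 and 2.28 against 43.4 to 86.3, and ZNF550, at 1.15 and 0 against 49.8 to 84.6, were chosen after their values were seen.

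ZNF234, ZNF502 and ZNF134 had the largest decrease of the ZNF genes that averaged 100 or more at pH 7.4. In their promoters, CG pairs, the sites at which DNA methylation acts, are in capitals. Methylation was not measured here, and its part in these decreases was not tested.
ZNF234, chr19:44141304-44141553, forward strand: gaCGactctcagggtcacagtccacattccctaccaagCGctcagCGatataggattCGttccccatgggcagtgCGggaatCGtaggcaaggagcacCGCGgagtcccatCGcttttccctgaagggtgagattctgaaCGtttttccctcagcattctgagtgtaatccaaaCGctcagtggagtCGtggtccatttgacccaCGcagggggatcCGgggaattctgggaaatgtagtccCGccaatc
ZNF502, chr3:44712410-44712659, forward strand: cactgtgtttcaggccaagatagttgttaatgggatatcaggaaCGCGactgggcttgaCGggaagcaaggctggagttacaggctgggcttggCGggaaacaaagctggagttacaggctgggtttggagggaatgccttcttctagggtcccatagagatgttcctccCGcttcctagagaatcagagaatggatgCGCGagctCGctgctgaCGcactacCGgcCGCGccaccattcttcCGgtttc
ZNF134, chr19:57613992-57614241, forward strand: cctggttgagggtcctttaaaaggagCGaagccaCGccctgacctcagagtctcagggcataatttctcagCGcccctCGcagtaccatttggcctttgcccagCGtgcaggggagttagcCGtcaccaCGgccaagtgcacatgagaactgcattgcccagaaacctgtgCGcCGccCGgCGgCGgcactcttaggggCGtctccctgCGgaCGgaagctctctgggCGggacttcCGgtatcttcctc
Over the 15 of 16 ZNF genes that fell at least 4-fold and matched a promoter, the 250 bases before the start held a median of 15 CG pairs, with a range of 7 to 20. The median was 18 over 270 ZNF genes that were not called, 20 over all tested genes and 10.5 over all genes that fell at least 4-fold. The risen interferon genes had a median of 6.

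HNF4A and several gut genes fell, while CDX2 was not called. HNF4A stood at 14.9 and 7.98 against 713, 661, 574, 590 and 566 (-5.70 ± 0.23, limma adjusted p = 2.12e-08). VIL1, the microvillus protein villin, stood at 2.29 and 1.14 against 24.6 to 104, a ratio of counts of 35.5 (12 to 172.9). MUC12, a membrane mucin, stood at 142 and 66.2 against 251 to 694 (-2.17 ± 0.37). CDX2, the other master regulator of intestinal identity, stood at 1030 and 821 against 700 to 918 and was not called (0.23 ± 0.16, adjusted p = 0.334). KRT20, a keratin of differentiated colon cells, rose, at 917 and 990 against 176 to 358 (1.83 ± 0.23). Of the 18 members of this list tested, 6 fell (33.3% beside 11.1% of all genes) and 3 rose (16.7% beside 9.11%). Without either pH 6.5 library, or without pH 7.4 replicate 5, 6 or 7, 1 rose.

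Keratins were called in both directions. Of 30 keratin and desmosome genes, 9 rose (30% beside 9.11% of all genes) and 7 fell (23.3% beside 11.1%). KRT7, a simple epithelial keratin, stood at 209 and 60.5 against 2496 to 3480 (-4.76 ± 0.34, limma adjusted p = 2.27e-06), with -5.64 without pH 6.5 replicate 1 and -3.87 without replicate 3. Several keratins of stratified epithelium rose, as did KRT20 of differentiated colon cells, given above. KRT5 stood at 721 and 897 against 25.4, 41.0, 23.2, 8.6 and 16 (5.24 ± 0.45), and its partner KRT14 at 738 and 811 against 20.6 to 65.3 (4.26 ± 0.45). KRT6A stood at 730 and 240 against 2.12 to 14.7 (5.66 ± 0.60) and KRT4 at 2219 and 594 against 6.14 to 36.6 (5.90 ± 0.59). Without pH 6.5 replicate 1 the changes of KRT6A and KRT4 were 4.86 and 4.95, and without replicate 3 they were 6.46 and 6.85. KRT13 (2.28 ± 0.51) was not called without pH 6.5 replicate 1.

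FaDu expresses these keratins, so levels that mark FaDu were set beside them. KRT5 at 721 and 897 was 0.27% and 0.33% of its FaDu level of 269820. TP63, the master regulator of squamous cells, stood at 2.29 and 3.42 in the pH 6.5 libraries against 5762 in FaDu, and MIR205HG, at 14863 in FaDu, was listed at 0 in both. KRT6A stood at 1463 in FaDu and KRT4 at 4102, closer to the HCT116 values. Over the 14 squamous markers, TP63 and PKP1 were under 10, 5 rose and 3 fell, and their summed level was 22587 to 30872 at pH 6.5 and 38926 to 47626 at pH 7.4. RANBP3L, among the 15 largest increases, stood at 92.7 and 290 against 20.1, 3.48, 1.01, 0 and 1.15 (5.63 ± 0.94, limma adjusted p = 0.00151). It stands at 23019 in SiHa, so these values are 0.40% and 1.26% of the SiHa level, while 27 SiHa genes stood at a median of 0.06% and 0%. The part of RNA from other lines in this value was not tested. Its change was 6.45 without pH 6.5 replicate 1, 4.82 without replicate 3 and 6.30 without pH 7.4 replicate 1.

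Several genes of cell junctions and matrix fell. Of 24 tight junction genes, 9 fell (37.5% beside 11.1% of all genes) and 2 rose, a median change of -0.48. CLDN4, a sealing claudin, stood at 5886 and 3576 against 10371 to 20466 (-1.56 ± 0.25), and CGN, OCLN and TJP3, which form the junction plaque and strands, fell by 1.39, 1.02 and 0.96. Of 44 matrix and integrin genes, 11 fell (25%) and 6 rose. Without pH 6.5 replicate 3, 5 fell, which is near the share over all genes, and 3 rose. Without replicate 1, 1 rose. COL12A1, a fibril-associated collagen, stood at 988 and 481 against 5230 to 12757 (-3.65 ± 0.32, limma adjusted p = 1.03e-05), LAMA3, a laminin chain of the basement membrane, fell by 2.21 ± 0.17 and COL17A1, its hemidesmosomal partner, by 2.13 ± 0.26. LOXL2, which crosslinks collagen, stood at 758 and 893 against 3080 to 6228 (-2.38 ± 0.24). ZEB1, a repressor of epithelial genes, rose, at 140 and 192 against 20.1 to 64.5 (2.22 ± 0.39). Of the 27 epithelial-mesenchymal genes, 9 fell (33.3%, with 5 without pH 6.5 replicate 3) and 4 rose (1 without pH 6.5 replicate 1). Of 29 genes of proteases and plasminogen activation, 5 rose (17.2% beside 9.11% of all genes) and 6 fell (20.7% beside 11.1%). Without pH 6.5 replicate 1, 1 rose, and without pH 7.4 replicate 5 or 7, 3 rose. The proteases KLK6 (-3.68 ± 0.28) and TMPRSS4 (-2.69 ± 0.20) fell, and the inhibitor TIMP1 rose by 1.11 ± 0.17. The collagenase MMP1, chosen after its values were seen, stood at 77.8 and 28.5 against 0 to 6.14 (4.65 ± 0.85), with 3.95, not called, without pH 6.5 replicate 1 and 5.36 without replicate 3.

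In the stem and regeneration list 11 of 25 members fell (6 without pH 6.5 replicate 3) and 3 rose. The 11 that fell were 44% of the list, beside 11.1% of all genes. They included SOX4, at 4588 and 6479 against 13801 to 26784 (-1.66 ± 0.24), and LY6D, at 171 and 193 against 437 to 1020 (-1.74 ± 0.26). Wnt genes went both ways, with 5 of 37 higher (9 without pH 7.4 replicate 1) and 7 lower (4 without pH 6.5 replicate 3). The Wnt shares were 13.5% higher and 18.9% lower, beside 9.11% and 11.1% of all genes. The ligand WNT16 stood at 1006 and 464 against 7609, 7825, 8039, 8582 and 7990 (-3.55 ± 0.22, limma adjusted p = 8.05e-07). Downstream, SP5, a direct target of beta-catenin, stood at 445 and 587 against 38.3 to 67.1 (3.37 ± 0.27), and the feedback ligase RNF43 at 4123 and 7528 against 855 to 1853 (2.32 ± 0.29). LGR4, a receptor for R-spondins, rose by 1.48 ± 0.24. Of the EGF family, EREG, the ligand epiregulin, fell, at 14523 and 3813 against 24325 to 34488 (-1.98 ± 0.36), with -2.94 without pH 6.5 replicate 1 and -1.01 without replicate 3. NRG1, a ligand of ERBB3, rose, at 391 and 468 against 6.88 to 63.6 (4.58 ± 0.72). ERRFI1, an inhibitor of the receptor, fell, at 9219 and 9067 against 15925 to 32397. TGFB2 stood at 24.0 and 24.0 against 73.1 to 172 (-2.13 ± 0.31) and its receptor TGFBR2 fell by 1.18 ± 0.15.

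**Figure D4:**
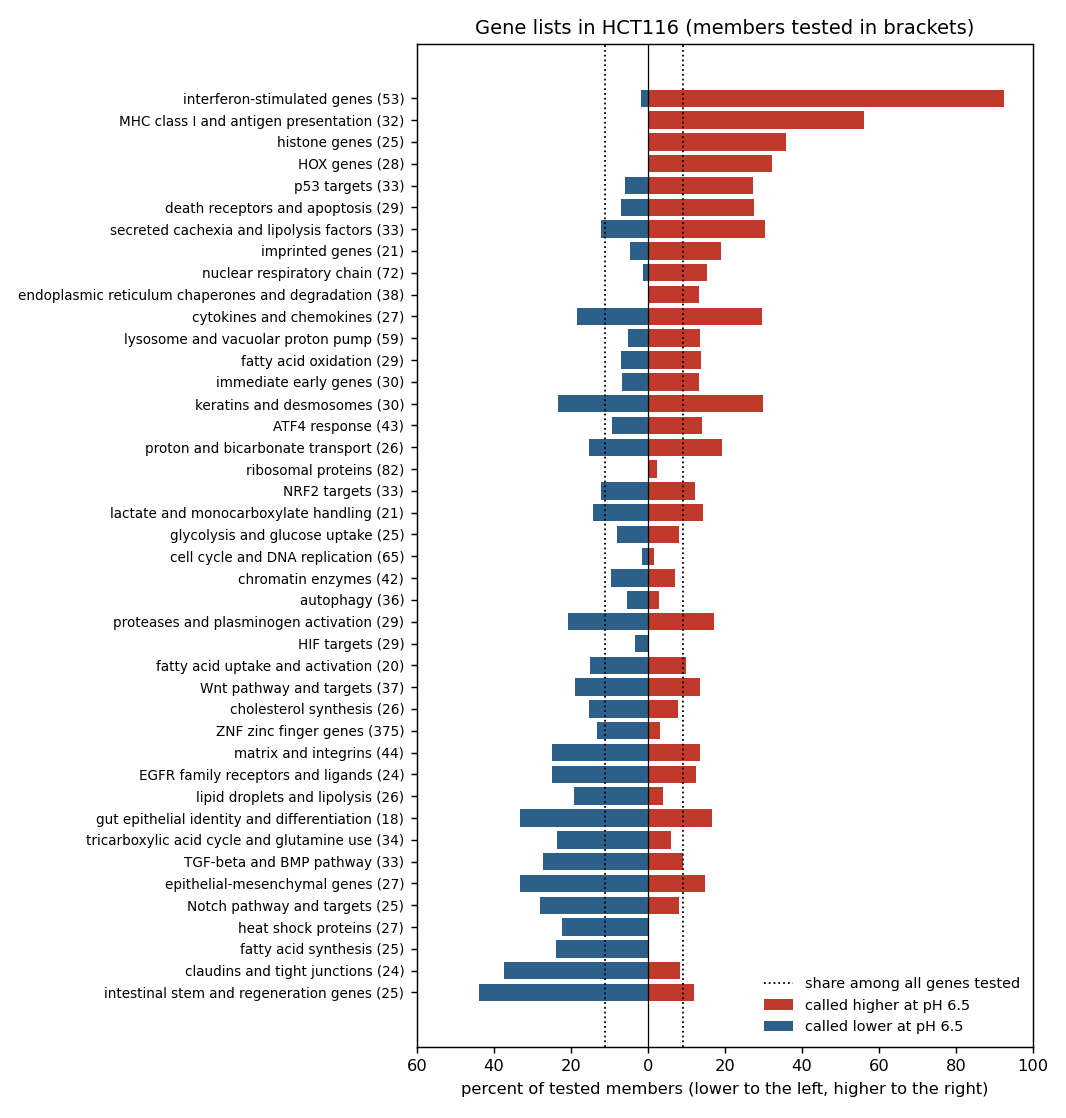
Percent of the tested members of each gene list called lower (left) or higher (right) at pH 6.5, for lists with at least 18 tested members, whose number is in brackets. Dotted lines mark the shares over all genes, 11.1% lower and 9.11% higher; the interferon list reaches 92.5% higher and the stem and regeneration list 44% lower.

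Several enzymes of fatty acid synthesis fell. Of 25 fatty acid synthesis genes, 6 fell (24% beside 11.1% of all genes) and none rose, a median change of -0.21. FASN, the fatty acid synthase, stood at 74678 and 49226 against 111238, 120231, 145954, 169215 and 113975 (-1.10 ± 0.20, limma adjusted p = 0.00246). SCD, which desaturates its products, fell by 1.07 ± 0.19, and ELOVL6, which elongates them, stood at 2184 and 2408 against 4670 to 8764 (-1.51 ± 0.19). ACSL1, which activates fatty acids taken up or released, stood at 1209 and 1009 against 3788, 4357, 5013, 5406 and 4700 (-2.06 ± 0.15, adjusted p = 2.68e-06). PLIN4, a coat protein of lipid droplets, fell by 1.52 ± 0.22 and LPIN2, a phosphatidate phosphatase, fell by 1.07 ± 0.18. Of 26 lipid droplet and lipolysis genes, 5 fell (19.2%, with 8 without pH 7.4 replicate 1) and 1 rose. Of 6 adipocyte markers measured, PLIN1, LEP, FABP4 and CIDEA were under 10. The 2 that were tested both fell, with changes of -2.15 and -1.52.

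Cholesterol synthesis genes had a median of -0.66, but only 4 of 26 fell (15.4% beside 11.1% of all genes) and 2 rose (7.69% beside 9.11%). The number that fell was 1 without either pH 6.5 library, 2 without pH 7.4 replicate 5, 19 without pH 7.4 replicate 1 and 21 when only pH 7.4 replicates 5, 6 and 7 were used. LSS, lanosterol synthase, fell by 1.14 ± 0.24 and was not called without either pH 6.5 library, and TM7SF2, a sterol reductase, rose by 1.29 ± 0.22.

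Glycolysis genes were called at about the rate of all genes. PC, pyruvate carboxylase, stood at 552 and 479 against 976 to 1664 (-1.21 ± 0.19), and the amino acid transporter SLC38A2 fell by 0.93 ± 0.16. Of 34 genes of the tricarboxylic acid cycle and glutamine use, 8 fell (23.5%, with 4 without pH 6.5 replicate 3 and 5 without replicate 1) and 2 rose. Of 25 glycolysis genes, 2 rose and 2 fell, 8% each beside 9.11% and 11.1% of all genes, with a median of -0.01, and 1 that fell was SLC2A1, the glucose transporter GLUT1, at 4467 and 4188 against 5686 to 12557 (-1.05 ± 0.25). It was not called without pH 6.5 replicate 1 or without replicate 3. ARRDC4, which responds to sugar phosphates and low pH through MondoA and holds back glucose uptake, stood at 1091 and 1589 against 199 to 366 (2.28 ± 0.26). In the respiratory chain, 11 of 72 nuclear genes rose and 1 fell, with 4 rising without pH 6.5 replicate 1 and 25 without replicate 3. The 11 that rose were 15.3% of this list, beside 9.11% of all genes. ATP5MC1, a subunit of the ATP synthase ring, stood at 4647 and 3262 against 1148 to 1683 (1.36 ± 0.18), and NDUFC2, of complex I, rose by 1.09 ± 0.16.

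Genes of acid handling were called in both directions. Of 26 proton and bicarbonate transport genes, 5 rose (19.2% beside 9.11% of all genes) and 4 fell (15.4% beside 11.1%). Leaving out either pH 6.5 library gave 2 that rose, and leaving out pH 7.4 replicate 7 gave 3. Leaving out pH 6.5 replicate 3 gave 2 that fell. SLC9A2, a sodium-proton exchanger of gut epithelium, stood at 71.0 and 106 against 241 to 334 (-1.76 ± 0.21) and was not called in a fit that held the SiHa libraries as well. CA11, a carbonic anhydrase-related protein, stood at 1270 and 1264 against 544 to 690 (1.04 ± 0.14). CA9, the hypoxia-induced carbonic anhydrase of tumours, stood at 4.58 and 3.42 against 4.24, 8.71, 51.3, 49.1 and 66.5 and was not called (-2.31 ± 0.88, limma adjusted p = 0.0855). At pH 7.4 it was low in replicates 1 and 3 and higher in replicates 5, 6 and 7. SLC16A3, the lactate exporter MCT4, stood at 5926 and 4938 against 8381 to 9225 (-0.71 ± 0.12), and the call was lost when only replicates 1 and 3 stood for pH 7.4. Of 29 hypoxia-inducible factor targets, none rose (beside 9.11% of all genes) and 1, INSIG2, fell (3.45% beside 11.1%). That call was lost without either pH 6.5 library. Without pH 7.4 replicate 1, 6 of these targets fell, in a fit where 2723 of all 18833 genes tested fell. In the lysosome list 8 of 59 rose and 3 fell, with 3 rising without pH 6.5 replicate 1, 15 without pH 7.4 replicate 1 and 4 or 5 without pH 7.4 replicate 5, 6 or 7. The 8 lysosome genes that rose were 13.6% of the list, beside 9.11% of all genes. CTSO, a cathepsin, rose by 2.33 ± 0.39. Of 36 autophagy genes, 1 rose (2.78% beside 9.11% of all genes) and 2 fell (5.56% beside 11.1%). At least 2-fold, 1 rose and 1 fell. The latter was ATG12, of autophagosome formation, at 2440 and 2167 against 7202 to 12496 (-2.14 ± 0.22).

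Several heat shock genes fell and several p53 targets rose. Of 27 heat shock genes, 6 fell (22.2% beside 11.1% of all genes) and none rose. HSPB8 stood at 48.1 and 36.5 against 287 to 637 (-3.33 ± 0.26) and HSPA2 at 36.6 and 42.2 against 162 to 307 (-2.31 ± 0.26). Of 43 genes of the ATF4 amino acid response, 6 rose (13.95% beside 9.11% of all genes) and 4 fell (9.3% beside 11.1%). At least 2-fold, 4 rose and 1 fell. Without pH 7.4 replicate 5 or 7, 3 rose, and without pH 6.5 replicate 1 fewer rose and more fell. Among those that fell was CTH, which makes cysteine, at 876 and 806 against 1967 to 2620 (-1.47 ± 0.15). ABCC2, an exporter of glutathione conjugates and an NRF2 target, stood at 2685 and 2649 against 15353 to 20520 (-2.78 ± 0.13, limma adjusted p = 1.14e-07). Of 33 p53 targets, 9 rose (27.3% beside 9.11% of all genes) and 2 fell, a median of 0.26. Fewer p53 targets rose without pH 6.5 replicate 1, a fit in which fewer of all genes rose as well. CDKN1A, the cell cycle inhibitor p21, stood at 15981 and 12192 against 5313 to 8941 (1.04 ± 0.18) and GDF15 at 20645 and 17867 against 4777 to 7695 (1.56 ± 0.17), and neither was called in a fit that held the SiHa libraries as well. TP53I3 rose by 1.10 ± 0.20, a call lost with only replicates 1 and 3 at pH 7.4.

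Of 65 cell cycle and DNA replication genes, 1 rose and 1 fell (1.54% each, beside 9.11% and 11.1% of all genes). FOXM1 fell by 0.56 ± 0.17 (limma adjusted p = 0.037) and CDK6 rose by 0.53 ± 0.17 (0.048). FOXM1 was not called without pH 6.5 replicate 3 or pH 7.4 replicate 3, 5 or 6, and CDK6 not without either pH 6.5 library or pH 7.4 replicate 5, 6 or 7. Without pH 7.4 replicate 1, 11 of these 65 genes fell, in a fit where 2723 of all 18833 genes tested fell. Of 29 apoptosis genes, 8 rose (27.6% beside 9.11% of all genes, with 4 without pH 6.5 replicate 1, 5 without pH 7.4 replicate 7) and 2 fell. TNFSF10, the death ligand TRAIL and an interferon target, stood at 95 and 151 against 0 to 8.71 (5.26 ± 0.79). BIRC3, an inhibitor of apoptosis, rose by 1.93 ± 0.26 and CASP4, an inflammatory caspase, by 1.19 ± 0.21.

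Genes for secreted factors bear on the series' subject, the loss of fat tissue. Of 33 secreted factors linked to cachexia or lipolysis, 10 rose (30.3% beside 9.11% of all genes) and 4 fell (12.1% beside 11.1%). Leaving out pH 6.5 replicate 1 gave 6 and 2, and leaving out replicate 3 gave 1 that fell. At least 2-fold, 8 rose and 4 fell. The median change over the list was 0.14 and the lowest was -2.59. SEMA3A, STC1, GDF15, PTHLH and AZGP1, described next, all rose, so they do not show the members that fell. SEMA3A, a secreted semaphorin, stood at 4888 and 11169 against 114, 127, 157, 147 and 187 (5.67 ± 0.28, limma adjusted p = 1.31e-07), with 6.26 without pH 6.5 replicate 1 and 5.07 without replicate 3. STC1, stanniocalcin, stood at 474 and 143 against 6.36, 1.74, 9.06, 9.83 and 8.02 (5.17 ± 0.58), with 4.31 and 6.04 in the same order. GDF15, an appetite-suppressing hormone, is given above with the p53 targets. PTHLH, parathyroid hormone-related protein, stood at 46.9 and 47.9 against 3.02 to 10.5 (2.63 ± 0.48), and AZGP1, the lipid-mobilising zinc-alpha-2-glycoprotein, at 54.9 and 74.1 against 6.14 to 24.4 (2.38 ± 0.46). Of 27 cytokines tested, 8 rose (29.6%, with 4 without pH 6.5 replicate 1) and 5 fell. CXCL10, an interferon-induced chemokine, stood at 61.8 and 29.7 against 0 to 3.48 (4.46 ± 0.71), CSF1 at 443 and 258 against 41.3 to 88.6 (2.41 ± 0.32), and CCL26 at 26.3 and 31.9 against 113 to 567 (-2.98 ± 0.47). CXCL8 stood at 549 and 155 against 20.1 to 98.5 (2.85 ± 0.55), with 1.95, not called, without pH 6.5 replicate 1 and 3.76 without replicate 3. APOL1, a lipoprotein component induced by interferon, stood at 253 and 92.4 against 0 to 3.48 (6.41 ± 0.67), with 5.69 without pH 6.5 replicate 1 and 7.13 without replicate 3. MUSK, the receptor kinase of the neuromuscular junction, stood at 175 and 329 against 0 to 2.29 (6.86 ± 0.55).

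Chromatin genes held a few large changes. HDAC9, a class II histone deacetylase, stood at 870 and 1615 against 102, 74.9, 77.5, 82.3 and 87.1 (3.80 ± 0.24, limma adjusted p = 9.90e-07), and DNMT3B, a de novo DNA methyltransferase, at 466 and 386 against 982 to 1709 (-1.65 ± 0.20). Of 42 chromatin enzymes, 3 rose and 4 fell (7.14% and 9.52%, beside 9.11% and 11.1% of all genes). In the HOX clusters, 9 of 28 genes tested rose and none fell (4 rose without pH 6.5 replicate 1), and 7 of the 9 were of the HOXB cluster, whose 9 tested genes had a median of 1.19. The 9 were 32.1% of the HOX genes tested, beside 9.11% of all genes. HOXB8 stood at 1945 and 1408 against 423, 289, 145, 155 and 149 (2.97 ± 0.38) and HOXB9 at 1526 and 1264 against 302 to 477 (1.97 ± 0.19). Of 25 histone genes, 9 rose and none fell, with 5 and 4 rising without pH 6.5 replicate 1 and 3 and 16 without pH 7.4 replicate 1. The 9 histone genes that rose were 36% of that list, beside 9.11% of all genes. H2BC21 stood at 557 and 707 against 324, 77.5, 86.6, 87.2 and 95.1 (2.47 ± 0.45), pH 7.4 replicate 1 lying apart from the other 4.

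The same contrast in SiHa asked whether these changes also occurred in another line. It used 5 SiHa libraries at pH 6.5 and 3 at pH 7.4, without replicates 6 and 7 at pH 7.4. In these the mesenchymal filament vimentin, VIM, chosen after its values were seen, stood at 2817 and 2863, against 2.04, 28.4 and 165 in the other 3 and at most 5.60 at pH 6.5. The pH effect differed between the lines in 5246 of 20927 genes (25.1%) by the limma interaction term, in 5881 with those 2 libraries included and in 2461 with the replicate number as a block. Members that had risen or fallen in HCT116 were chosen by the HCT116 change in the same libraries, so the counts of them below are a description. Over all 20927 genes, 2566 rose and 3063 fell in SiHa. Of 53 interferon genes, 7 rose and 9 fell in SiHa, near those shares, with a median of -0.04. The change was larger in HCT116 for 48 of the 49 interferon genes that had risen in HCT116. BST2, at 10629 and 10312 in HCT116 at pH 6.5, was already at 10848 in SiHa at pH 7.4 and 12568 at pH 6.5. IFI44L and XAF1 averaged 545 and 343 in SiHa at pH 7.4, above their HCT116 means at pH 6.5 of 458 and 270. Others did not: IFI27 and IFI6 averaged 14.4 and 3589 in SiHa at pH 7.4, against 14532 and 34975 in HCT116 at pH 6.5. Of 32 MHC class I genes, 15 rose and none fell in SiHa, and 12 of the 18 that rose in HCT116 did so by more than in SiHa. Of 33 p53 targets, 18 fell and none rose in SiHa, and the 9 that rose in HCT116 differed from SiHa in that direction (6 with the block). In SiHa 44 of 65 cell cycle genes rose and none fell, and the effect was lower in HCT116 for 29 (7 with the block). All 29 reported genes with the largest change in HCT116 differed from SiHa, 28 of them with the block. Some that fell in HCT116 were near 0 in SiHa at both pH values, so a fall there could not be seen. At pH 6.5 and 7.4 in SiHa, ZFP42 and ZC4H2 averaged 0 and 0, DPEP1 0 and 0.32, and TM4SF18 0.36 and 1.37. For such genes the difference restates the HCT116 change. Over all genes, 703 of the 954 that were at least 2-fold higher and 656 of the 1054 at least 2-fold lower in HCT116 differed from SiHa in that direction, and 456 and 509 with the block.

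Replicate 5 labelled pH 6.5 carried both lines and was used only for genes at most 5 normalised counts in every SiHa library at pH 6.5. Its HCT116 share was 58.9%, the median over 311 uncalled genes, and its values were divided by this share. Of 206 such genes called higher, 185 (89.8%) lay above every pH 7.4 library in it and 1 below. Of 259 called lower, 209 (80.7%) lay below every pH 7.4 library and 9 above. Among 982 uncalled genes, 349 (35.5%) lay above and 242 (24.6%) below. Of genes that changed at least 4-fold, 107 of 109 and 126 of 143 lay on the same side. IFNL1 reached 68.6 in it, against at most 4.36 at pH 7.4. MUSK reached 539 and SEMA3A 9363, WNT16 915, ZFP42 3.35, DPEP1 8.36, FLRT3 3.35, TM4SF18 13.4 and ZNF350 5.02, each on the side of the other pH 6.5 libraries. KRT20 stood at 2962, above the 917 and 990 of replicates 1 and 3. MUC12, at 455, lay within its pH 7.4 range, and so did KRT13, at 731 against a pH 7.4 maximum of 894.

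**Figure D5:**
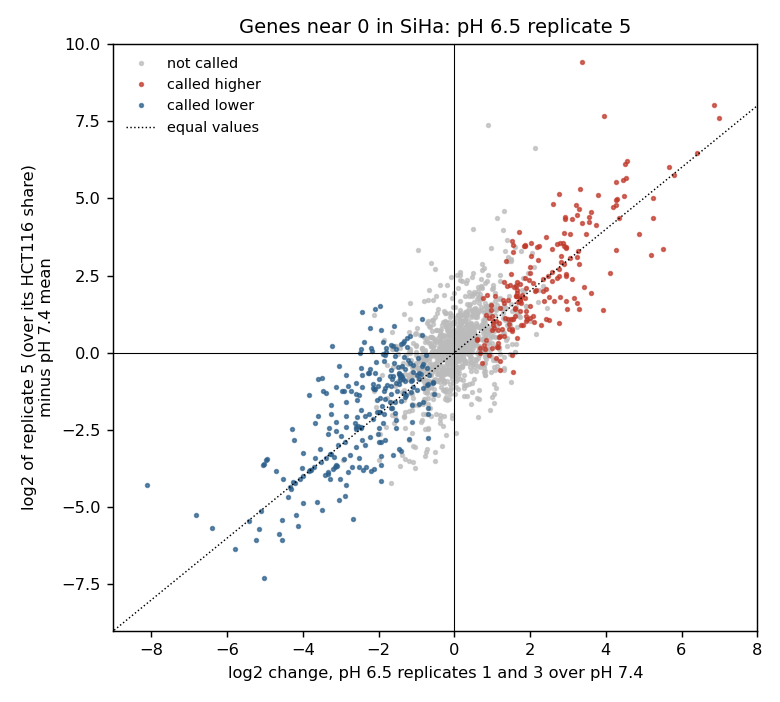
For genes at most 5 normalised counts in every SiHa pH 6.5 library, the log2 difference between replicate 5 labelled pH 6.5, divided by its HCT116 share, and pH 7.4 (vertical axis) against the log2 change of replicates 1 and 3 over pH 7.4 (horizontal axis). Colours mark genes called higher, called lower or not called; the dotted line marks equal values, and 89.8% of those called higher lie above every pH 7.4 library.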

How the data were processed

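RNA was extracted with Trizol and sequenced on an Illumina platform, per the labels' protocols. The submitters' processing notes list the build GRCh37 and, as tools, STAR 2.6.1d, DESeq2 1.22.2, Trimmomatic 0.38, FastQC and bcl2fastq 2.20. Counter, strand setting and annotation release were not given in the sources used here. Per library and gene, the deposited table holds 1 value in the unit signal, which are counts that the authors divided by a size factor: 100% of values were whole multiples of a library's step within 0.01, so whole reads were recovered. Of 38122 identifiers, 35466 had a symbol in RefSeq or gene name tables and 2656 did not. A count of 0 allows up to 3 reads per library, 3.43 normalised counts at pH 6.5 on average and 3.19 at pH 7.4, and this limit covers counting error only.

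The 2 groups were compared with limma 3.58.1 (R 4.3.3) with an intensity trend on log2 of the value plus 1, with no covariate, for genes whose higher group averaged 10 or more, 2-sided, at a Benjamini-Hochberg adjusted p under 0.05. The script was tested on simulated data. The interaction with SiHa was fitted in 1 model. Ratios of counts carry 95% counting intervals. edgeR 4.0.16 and DESeq2 1.42.0 on recovered reads, other pseudocounts, filters and scalings, libraries left out and a replicate block were alternatives. Python 3.11.15 with pandas 2.3.3, numpy 2.4.6, scipy 1.17.1 and matplotlib 3.10.9 was used.

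The members, gene lists and tests were chosen with earlier results of these data known. The text names the 15 genes with the largest increase and the 15 with the largest decrease among called genes with a mean of at least 100, no overlap and a symbol, up to 4 such called members per list, and list members of textbook importance; others are said to be chosen after their values were seen. Y-linked genes, the RNAs of X inactivation and some other genes that this rule names are not reported here. Promoter sequences are from RefSeq (GRCh38.p14), matched by symbol for 12027 of 18025 tested genes with a symbol, and no coordinates of the deposited table's build were used.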

Additional observations from a re-analysis of the deposited data

Results flagged for a closer look

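Of 131 named genes, 9 had 1 pH 7.4 library lying apart from the other 4 by Dixon's 95% critical value, where chance gives about 1 in 20. In 8 of the 9 the library was pH 7.4 replicate 1. It was the highest for RANBP3L (20.1), HSPA2 (307), CXCL8 (98.5), HOXB9 (477), H2BC21 (324) and H1-2 (1494.5), a linker histone called higher at pH 6.5 (1.24 ± 0.32) but not without either pH 6.5 library. It was the lowest for LGR4 (498) and ATP5MC1 (1148). In FLRT3 the highest was pH 7.4 replicate 3 (305).

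The change at pH 6.5 differed between HCT116 and SiHa, by the limma interaction term, for each of the 29 reported genes with the largest change in HCT116. These genes were chosen by the HCT116 change. Genes that fell and were near 0 in SiHa at both pH values, such as ZFP42 and ZC4H2, could not fall there. Some that rose, such as BST2, IFI44L and XAF1, were already expressed in SiHa at pH 7.4, at 10848, 545 and 343. The log2 differences, HCT116 minus SiHa, were 9.84 for BST2, 8.80 for IFI44L, 6.35 for IFITM1, 7.37 for MUSK, 6.07 for IFI27, 5.97 for APOL1, 5.89 for IFI44, 5.96 for IFI6, 6.58 for XAF1 and 6.96 for SAMD9L. They were 5.46 for PARP10, 7.63 for KRT4, 8.61 for KRT6A, 9.80 for SEMA3A, whose change in SiHa was -4.13, and 4.51 for RANBP3L. Among genes that fell they were -7.19 for TM4SF18, -5.23 for FLRT3, -6.32 for ZNF234, -6.33 for ZNF502, -6.40 for ZFP42, -4.39 for HNF4A and -5.14 for ZNF134. They were -2.56 for SPATA18, -4.92 for DPEP1, -5.21 for GNA15, -5.08 for SUSD4, -5.02 for ZC4H2, -4.09 for NWD1 and -5.81 for SUN3.

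In the mixed library, replicate 5 labelled pH 6.5, CST1, a secreted cystatin near 0 in SiHa, stood at 190, against at most 19.4 in the other 7 HCT116 libraries.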

How the results depend on the processing

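The 29 reported genes with the largest change kept their direction and call under every alternative except that with all 10 libraries as labelled, which includes the 3 libraries with SiHa genes and lost 7 of these calls. Over all 128 called genes that are named, that alternative lost 37 and turned 13: PC (0.30), LPIN2 (0.36), TM7SF2 (-0.57), GDF15 (-1.17), FOXM1 (0.14), CDK6 (-0.27), TGFB2 (2.25), LOXL2 (0.19), KRT20 (-0.29), GBP2 (2.05), CDKN1A (-0.29), AZGP1 (-0.32) and KRT13 (-1.36). The interferon list then had 42 risen members. No gene called both in the main setting and in any alternative changed direction. Leaving out 1 library gave 850 to 2427 genes higher, 1348 to 2723 lower, 628 to 1192 at least 2-fold higher and 893 to 1098 at least 2-fold lower. With only replicates 1 and 3 at pH 7.4 there were 588 higher, 890 lower and 516 at least 2-fold higher, and the cause was not tested beyond the smaller group. edgeR on the recovered reads called 2068 higher and 1848 lower, and DESeq2 2172 and 2142. The depth allows no statement about genes under 3 reads in each library.

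The groups share the replicate numbers 1 and 3, and the labels do not say that a number marks a shared culture or day. Deviations of same-numbered libraries had a correlation of 0.17 over 2 pairs. With the replicate number as a block, 1145 genes were higher, and the pH effect differed from SiHa in 2461. Of the named calls the block lost FOXM1 and CDK6.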
